A study of Mus musculus with 42 samples.

Results

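The solvent group of a mouse bone marrow stromal cell study is described here on its own, as a baseline picture of which genes these cells transcribe and how those genes are marked. It was taken from the sample labels as every library of cells given the solvent alone, which makes 14 of the 42 samples of the series. These are 6 RNA-seq libraries, 4 ChIP-seq libraries of H3K4me3 and 4 ChIP-seq libraries of H3K27me3. The cells are mesenchymal stromal cells (MSCs) from the long bone marrow of C57BL/6 mice, a wild-type inbred strain, bought frozen and used at passage 9 to 10. All 14 libraries come from cells kept for 48 h in 0.1% dimethyl sulfoxide (DMSO), the vehicle of the compounds tested elsewhere in the series. How many animals gave the culture is not stated in the labels, so differences between libraries may be technical.

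Marrow stromal cells are the plastic-adherent, non-blood cells of bone marrow. They secrete matrix and the factors that keep blood stem cells in place, and in culture they can be turned into fat, bone or cartilage cells. H3K4me3 is a histone mark laid down by the SET1 and MLL (KMT2) enzymes at the starts of genes that are transcribed or ready to be. H3K27me3 is laid down by Polycomb repressive complex 2 (PRC2), whose catalytic subunit is EZH2 or EZH1, over genes kept silent, among them many developmental regulators of other lineages. A promoter with both marks is often called bivalent, but in a population of cells the marks may sit on different cells or alleles.

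The 6 RNA libraries held 4269329 to 5087215 read counts in genes. Reads outside genes made up 21.8% to 23.8% of each library, and mitochondrial transcripts 0.288% to 0.342% of gene counts. Levels are given as CPM, the counts of a gene scaled to a common library total with TMM factors. CPM also grow with transcript length, and exon lengths were not used here. Differences in CPM between genes, and between medians of groups of genes, therefore hold differences in length as well as in RNA, and length was not adjusted for. A mean of 1 CPM or more was reached by 13627 of 45313 gene entries, or 30.1%. Among the 18359 genes with an annotated start used here it was reached by 9424, or 51.3%. The counts of list genes at 1 CPM or more below are to be read beside both shares. At the other end, 58.7% of entries had 3 counts or fewer over the 6 libraries, and 3 counts over all of them correspond to 0.110 CPM.

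The 15 genes that drew most reads included genes of the cytoskeleton and the extracellular matrix, beside others of neither kind. Apart from ribosomal protein, mitochondrial and histone genes, Ahnak, a giant scaffold protein under the membrane, led with 2467 CPM in the lowest, 2725 in the median and 2800 in the highest library. Lrp1, an endocytic receptor, averaged 2394 ± 173 CPM (SD, n = 6). The cytoskeletal genes Myh9 (non-muscle myosin), Plec (plectin) and Flna (filamin) averaged 2067 ± 86.4, 1998 ± 107 and 1692 ± 55.7 CPM. The matrix genes Fn1 (fibronectin), Col1a1, Col1a2 (both chains of type I collagen), Hspg2 (perlecan) and Thbs1 (thrombospondin) were also among the first 15. The other 5 were the nuclear RNA Malat1, Prrc2a, the transcription factor Nfix at 1053 ± 37.7 CPM, Sptbn1 (spectrin) and the ubiquitin ligase Huwe1.

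Of 38 extracellular matrix genes, 34 (89.5%) were at 1 CPM or more, against 30.1% of all entries and 51.3% of genes with a start. Their summed level was 15785 to 16803 CPM in the 6 libraries. Fn1 had 1742, 1848 and 1936 CPM in the lowest, median and highest library. Col1a1 had 1725, 1814 and 1898 CPM, and Col1a2 1492, 1580 and 1654 CPM. The enzymes that crosslink and fold collagen were read as well, with Lox at 732 ± 20.7 CPM and the collagen chaperone Serpinh1 at 538 ± 21.7 CPM. Some matrix genes were at the floor in every library. Eln (elastin) and Lum (lumican) had 0 counts, which allows up to 0.110 CPM. Mmp2, the gelatinase of many fibroblasts, averaged 1.56 ± 1.16 CPM and was at 0 in at least 1 library, whereas Mmp14, the membrane-bound collagenase, averaged 226 ± 9.41 CPM.

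The stromal surface genes were present in large part. Of 23 genes for surface proteins used to define marrow stromal cells, 20 were at 1 CPM or more. That is 87.0%, against 51.3% of genes with a start. Nes (nestin, an intermediate filament of stromal and neural precursors that is counted in this list) had 754, 789 and 823 CPM in the lowest, median and highest library. Itgb1 (integrin beta 1) had 567, 604 and 625 CPM, and Cd44, the hyaluronan receptor, 387, 394 and 416 CPM. The platelet-derived growth factor receptors Pdgfrb and Pdgfra averaged 291 ± 20.8 and 116 ± 9.81 CPM. Ly6a, which encodes the mouse stromal antigen Sca-1, averaged 74.0 ± 5.74 CPM, and Thy1 (CD90) 53.7 ± 3.45 CPM. Of the other antigens that are standard for human MSCs, Nt5e (CD73) reached only 3.14 ± 1.31 CPM and Eng (CD105) 6.05 ± 1.09 CPM. Ngfr had 0 counts, and Lepr, the leptin receptor that marks perivascular stroma of adult marrow, averaged 0.295 ± 0.363 CPM.

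Of 17 marrow niche genes, 14 (82.4%) were at 1 CPM or more, against 51.3% of genes with a start. Csf1, the macrophage growth factor, had 487, 509 and 519 CPM in the lowest, median and highest library. Cxcl12, the chemokine that retains blood stem cells, had 343, 356 and 379 CPM, and Grem1, a secreted inhibitor of bone morphogenetic proteins, 327, 347 and 356 CPM. The factors Foxc1, Ebf3 and Ebf1 averaged 159 ± 7.02, 97.5 ± 9.20 and 65.2 ± 6.40 CPM. Il7, Tnfrsf11b (osteoprotegerin) and Lepr were below 1 CPM. Bmp4 carried both marks at its start and averaged 2.27 ± 1.09 CPM.

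**Figure D1:**
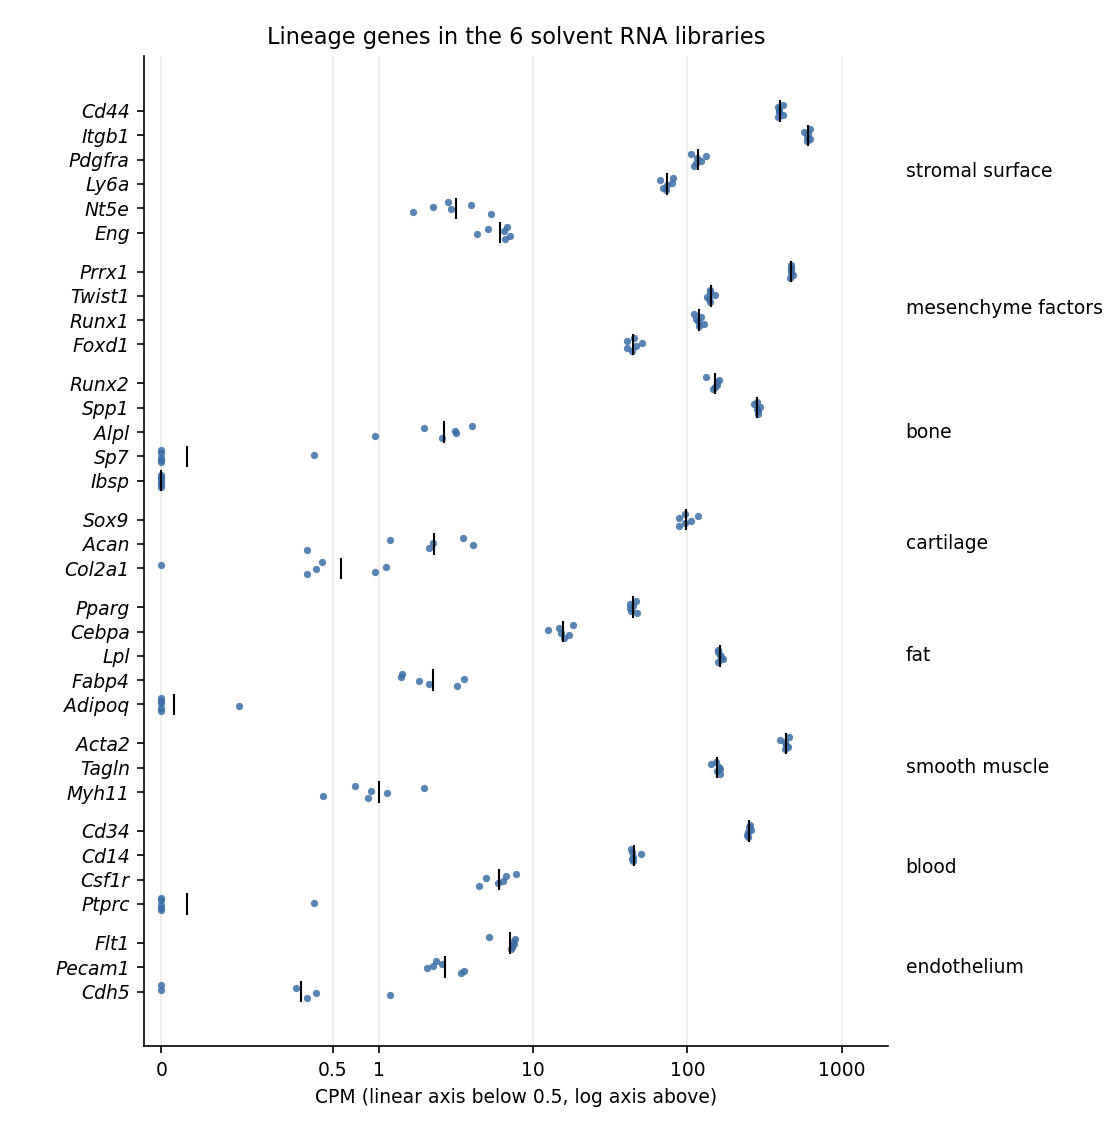
CPM of 33 lineage genes (rows) in the 6 solvent RNA libraries, each point 1 library and each vertical line the mean; the axis is linear below 0.5 CPM and logarithmic above. Stromal genes and the regulators Runx2, Sox9 and Pparg are read in every library, while Sp7, Ibsp, Adipoq and Ptprc sit at or near 0.

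Transcription factors of mesenchyme gave a mixed picture, with 24 of 36 at 1 CPM or more and 9 at 3 counts or fewer. The 66.7% at 1 CPM or more stand beside 51.3% of genes with a start. Prrx1, a homeobox factor of limb and skeletal mesenchyme, had 460, 469 and 487 CPM in the lowest, median and highest library. Tcf4 and Zeb1 averaged 321 ± 16.7 and 167 ± 5.72 CPM, and Twist1 141 ± 5.64 CPM. Hand2, Barx1, Tcf21, Meox2, Pitx1, Tbx5 and Alx1 had 0 counts in all 6 libraries. The starts of Hand2 and Barx1 had both marks, and that of Tcf21 had H3K27me3 only. Foxd1 and Foxf2, forkhead factors of kidney and gut mesenchyme, also had both marks but were read, at 44.5 ± 3.70 and 12.4 ± 2.96 CPM.

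Of the lineages open to these cells, bone was represented by 11 of 22 genes at 1 CPM or more. This share of 50.0% is above the 30.1% of all entries but near the 51.3% of genes with a start. Runx2, the master regulator of osteoblasts, had 132, 153 and 161 CPM in the lowest, median and highest library. Col1a1, Sparc (625 ± 29.3 CPM) and Spp1 (osteopontin, 284 ± 8.79 CPM) were the members with most reads. Alpl (alkaline phosphatase), with both marks at its start, averaged 2.62 ± 1.06 CPM. Of the regulators, Dlx5 had 0 counts and Sp7 (osterix) 2 counts over the 6 libraries. Ibsp, Bglap2 and Mepe had 0 counts and Bglap (osteocalcin) 1 count.

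In the cartilage list, 5 of 14 measured genes were at 1 CPM or more. That share, 35.7%, is near the 30.1% of all entries and below the 51.3% of genes with a start. Sox9, the master regulator of chondrocytes, had 87.6, 95.9 and 117 CPM in the lowest, median and highest library, and Col11a1 and Sox5 averaged 41.4 ± 4.90 and 25.6 ± 3.69 CPM. Col2a1, the main cartilage collagen, averaged 0.567 ± 0.401 CPM, and Acan (aggrecan) and the ion channel gene Trpv4, both with both marks, 2.25 ± 1.37 and 13.5 ± 4.47 CPM. Col9a1, Matn1 and Hapln1 had 0 counts.

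Among fat genes, 15 of 16 adipogenic regulators but 8 of 19 adipocyte genes were at 1 CPM or more. These shares of 93.8% and 42.1% stand beside 51.3% of genes with a start. Pparg, the nuclear receptor that drives fat cell formation, had 42.3, 43.7 and 47.4 CPM in the lowest, median and highest library, with H3K4me3 only at its start. Cebpa, its partner in mature fat cells, had 12.5, 15.4 and 18.01 CPM, with both marks. Both marks were also found at Prdm16 (9.10 ± 1.14 CPM) and Zfp423 (6.20 ± 2.06 CPM), regulators of brown and white fat precursors, and at Klf15, which had 0 counts. The regulators with most reads were Rxra (199 ± 11.1 CPM), Nr3c1 (the glucocorticoid receptor, 169 ± 8.89 CPM) and Klf5 (124 ± 5.13 CPM). Of the adipocyte genes, Scd1 (fatty acid desaturase, 376 ± 12.3 CPM), Lpl (lipoprotein lipase, 162 ± 4.69 CPM) and Pnpla2 (triglyceride lipase, 90.0 ± 5.56 CPM) were read in every library. Fabp4 averaged 2.24 ± 0.927 CPM. Adipoq (adiponectin) and Plin1 (perilipin) had 1 count each over the 6 libraries, and Lep, Retn, Cd36 and Pck1 had 0.

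Contractile genes were read broadly. In the smooth muscle and myofibroblast list, 14 of 15 genes (93.3%) were at 1 CPM or more, against 51.3% of genes with a start. Cald1 (caldesmon) averaged 962 ± 36.8 CPM, Tpm1 (tropomyosin) 594 ± 23.0 CPM and Acta2 (smooth muscle actin) 434 ± 19.3 CPM. Genes of mature smooth muscle were low, with Myh11 at 1.00 ± 0.520 CPM and its regulator Myocd at 0.282 ± 0.347 CPM. Of 11 skeletal muscle genes only Acta1 reached 1 CPM (1.36 ± 0.715).

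Genes of other cell types reached 1 CPM in shares from below that of all entries (30.1%) to slightly above it. All of these shares were below the 51.3% of genes with a start. Of 36 blood cell genes, 6 (16.7%) were at 1 CPM or more and 25 had 3 counts or fewer, against 58.7% of all entries with so few. Ptprc, which encodes the pan-leukocyte protein CD45, had 2 counts over the 6 libraries. Lyz2, Adgre1, Kit and the globin genes Hbb-bs and Hba-a1 had 0. The summed level of the list, 313 to 338 CPM, came mostly from 1 gene. Cd34, which stromal cells of mouse tissues also express, had 243, 249 and 260 CPM in the lowest, median and highest library, and Cd14 had 42.8, 44.0 and 49.9 CPM. The other 4 were Itga2b (7.36 ± 1.52 CPM), Csf1r (5.99 ± 1.19 CPM), Cd68 (5.40 ± 1.49 CPM) and the basophil protease gene Mcpt8 (5.18 ± 1.73 CPM). Fewer cells of a type and less RNA per cell cannot be told apart in these bulk libraries.

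Endothelial genes reached 1 CPM in 6 of 16 cases, a share of 37.5% beside 30.1% of all entries and 51.3% of genes with a start. Flt1, Egfl7 and Kdr, all with both marks, averaged 7.02 ± 0.932, 6.30 ± 1.59 and 1.05 ± 0.766 CPM, and Plvap and Pecam1 4.68 ± 1.06 and 2.68 ± 0.631 CPM. Cldn5, Tie1, Emcn, Sox17 and Sox18 had 0 counts. Epithelial genes reached 1 CPM in 3 of 15 cases, with Krt19 at 45.3 ± 3.47 CPM, Trp63 at 1.41 ± 1.04 CPM and Krt18 at 1.20 ± 0.934 CPM. The defining gene Epcam had 2 counts in all. Neural genes reached it in 3 of 18 cases (16.7%), while Sox1, Sox2, Olig2 and Rbfox3 had 0 counts. In the endoderm list 3 of 11 genes (27.3%) reached it, near the share of all entries and below that of genes with a start. Gata6 and Gata4 averaged 61.0 ± 3.82 and 6.32 ± 1.18 CPM, Afp 3.15 ± 0.692 CPM, and the other 8 were below 1 CPM. Of 12 pluripotency and germ cell genes only Nanog reached 1 CPM (1.62 ± 0.837), and 10 had 3 counts or fewer. Nanog has close copies and Xist an antisense partner, and the strand setting of the counting is not known, so the counts of both are uncertain. Xist, the RNA that coats an inactive X chromosome, averaged 0.451 ± 0.579 CPM, and the Y-linked genes Ddx3y, Kdm5d, Uty and Eif2s3y had 0 counts in all 6 libraries.

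Genes of the cell cycle and of its arrest were read together. All 16 cell cycle genes were above 1 CPM, beside 51.3% of genes with a start. They were led by Mki67 (889 ± 37.6 CPM), Top2a (533 ± 9.64 CPM) and the cyclin gene Ccnd1 (434 ± 9.29 CPM). All 12 cell cycle inhibitor and p53 pathway genes were above 1 CPM too. Cdkn1b (p27) had 193, 202 and 215 CPM in the lowest, median and highest library. Cdkn2a, the INK4A and ARF locus that is kept off by Polycomb in young cells, had 167, 181 and 190 CPM, with H3K4me3 and no H3K27me3 island at its start. Cdkn2c averaged 87.4 ± 3.43 CPM and Cdkn2b, the neighbour of Cdkn2a, 63.6 ± 4.36 CPM.

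Of 33 genes for secreted factors, 27 (81.8%) were at 1 CPM or more, against 51.3% of genes with a start. Igfbp4, which binds insulin-like growth factors, had 476, 492 and 516 CPM in the lowest, median and highest library, and Igfbp7 and Vegfa averaged 231 ± 8.92 and 227 ± 12.9 CPM. Gas6, Sfrp2 and Igfbp3 had both marks and averaged 2.44 ± 1.05, 2.18 ± 0.521 and 1.85 ± 0.761 CPM. Igf2 was the only list member with H3K27me3 alone at its start that reached 1 CPM, at 1.51 ± 0.759. Bmp2 and Igfbp2 had 0 counts.

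All 30 genes for enzymes and readers of the 2 marks were above 1 CPM, beside 51.3% of genes with a start. Kmt2d, which methylates H3K4 mainly at enhancers, led with 717, 800 and 927 CPM in the lowest, median and highest library, followed by the Polycomb reader Cbx6 at 402 ± 14.3 CPM and Kmt2a at 287 ± 28.9 CPM. The PRC2 subunit genes Suz12, Ezh2 and Eed averaged 176 ± 9.86, 151 ± 5.91 and 75.6 ± 7.52 CPM, and Ezh1 30.1 ± 4.39 CPM. Cbx8, a Polycomb gene, was the only one with both marks (28.0 ± 3.90 CPM). Among 48 nuclear receptor genes, 30 (62.5%) were at 1 CPM or more, not far above the 51.3% of genes with a start. Rarg (345 ± 6.85 CPM), Nr2f2 (330 ± 7.22 CPM) and Nr4a1 (208 ± 8.91 CPM) drew most reads. The receptors that the compounds of the series target were read as Rxra at 199 ± 11.1 CPM, Rxrb at 155 ± 8.09 CPM and Pparg at 44.3 ± 2.02 CPM, while Rxrg had 0 counts. Ppara and Rorb, with both marks, averaged 1.15 ± 0.694 and 1.81 ± 0.691 CPM. The 12 housekeeping genes averaged 77.8 CPM (Hprt) to 714 CPM (Actb), with Polr2a and Eef1a1 at 480 ± 34.5 and 358 ± 21.1 CPM.

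**Figure D2:**
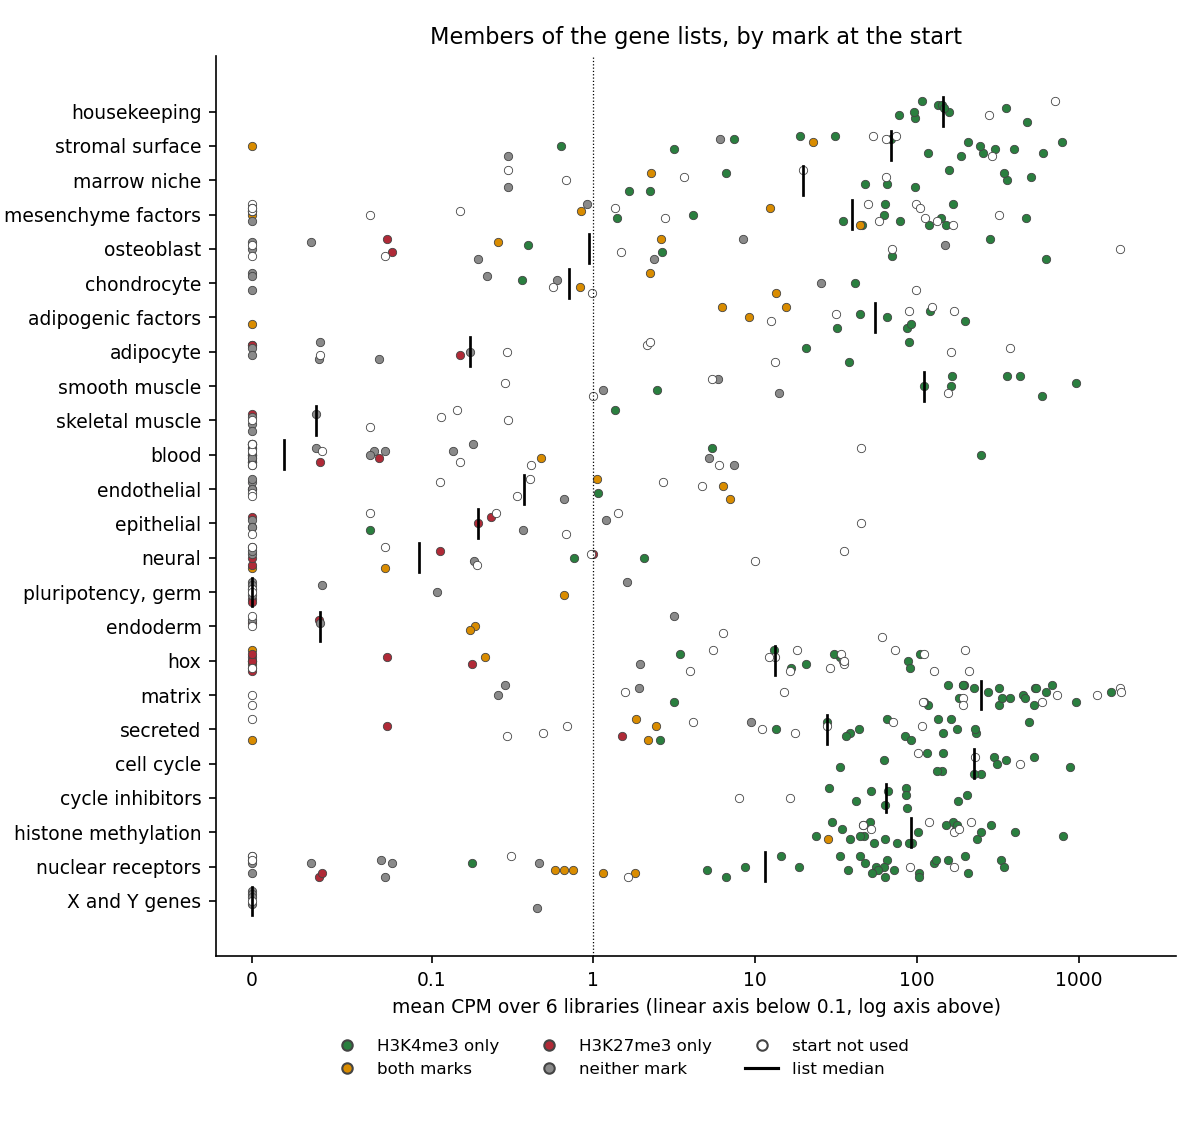
Mean CPM over the 6 solvent libraries (linear axis below 0.1, logarithmic above) of each member of the 24 gene lists, coloured by the marks at its start (white: start not used), with the list median as a vertical line and 1 CPM as a dotted line. The median is 0 CPM for pluripotency genes and highest for matrix genes, and points with H3K27me3 lie mostly below 1 CPM.

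The marks were read from the authors' lists of islands, stretches where ChIP reads outnumber input reads. The 4 H3K4me3 libraries had 19082 to 24735 islands and the 4 H3K27me3 libraries 17081 to 26890. H3K4me3 islands were narrow and recurrent, with a median width of 2800 to 3400 bp and 58.0% to 74.7% of each library's islands found in all 3 others. H3K27me3 islands had a median width of 4000 to 5200 bp and covered 106 to 167 Mb, but 19.2% to 29.0% recurred in all 3 others. Their enrichment was low, with a median ChIP over input fold of 1.33 to 1.47 in the authors' files, against 2.86 to 5.92 for H3K4me3. A gene was given a mark when an island reached the 1 kb on either side of an annotated start in at least 3 of the 4 libraries. For the 2885 genes with more than 1 start, each mark could come from any start. In such genes both marks may therefore sit at different starts. Folds and sequences of starts by state take each start on its own.

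Of 18359 genes with a start used here, 9185 (50.0%) had H3K4me3 only, 1142 (6.22%) had both marks, 963 (5.25%) had H3K27me3 only and 7069 (38.5%) had neither. RNA levels differed between these states. Genes with H3K4me3 only had a median of 47.9 CPM, and 92.0% of them reached 1 CPM (91.4% to 92.1% in single libraries). Genes with both marks had a median of 0.421 CPM, and 40.0% reached 1 CPM (37.8% to 40.1%). Genes with H3K27me3 only had a median of 0 CPM, and 30 genes, or 3.12%, reached 1 CPM. Genes with neither mark also had a median of 0 CPM, and 6.90% reached 1 CPM. These are descriptions over genes, which are not replicates, and were not tested. The number of genes with both marks moves with the calling, to 714 when an island is asked for in all 4 libraries, 3037 with an island in at least 1 and 445 with a fold of at least 1.5. It fell to 760 without ChIP library 3 and 748 without ChIP library 4 of each mark, where all 3 remaining libraries had to hold an island.

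**Figure D3:**
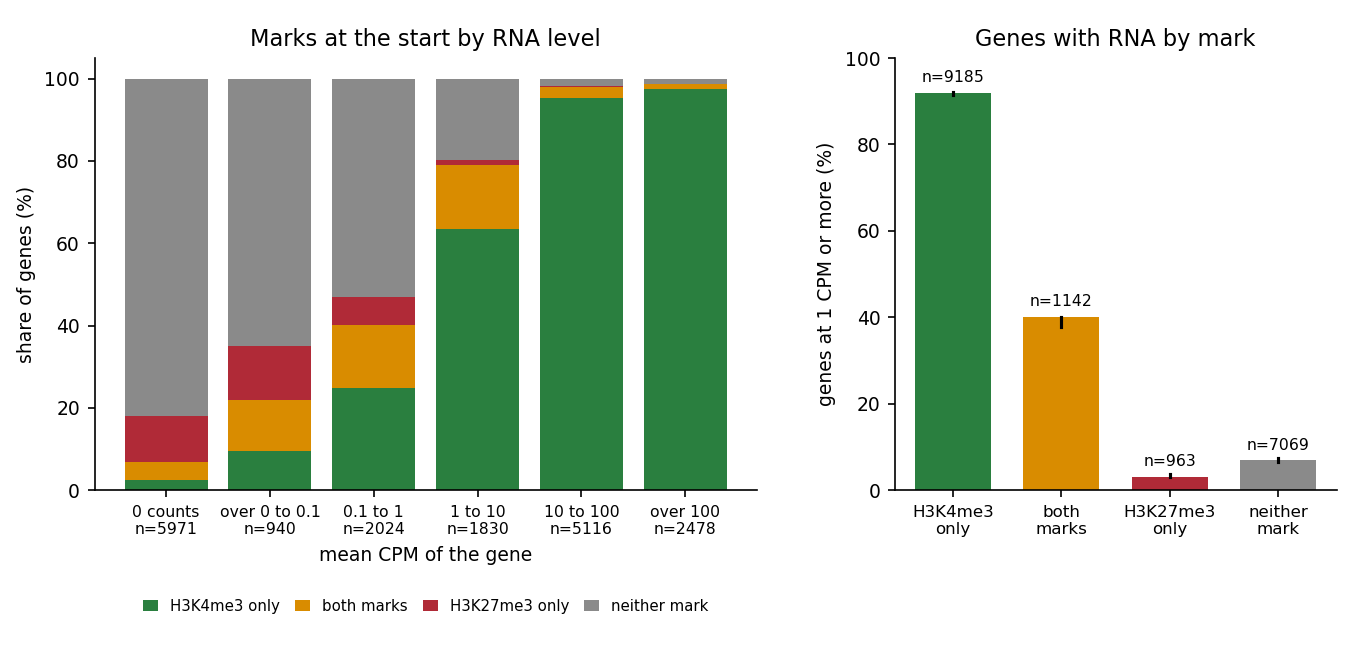
Left, share of genes with each mark state (stacked, in %) in 6 classes of mean CPM. Right, share of genes at 1 CPM or more in each mark state (bars), with the range of single libraries as black lines. H3K4me3 alone takes 97.4% of genes above 100 CPM, and genes with both marks are most frequent between 0.1 and 10 CPM.

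Read from the RNA side, the share of genes with H3K4me3 grew with the level at every step. It was 6.75% of the 5971 genes without a count, 40.1% of the 2024 genes between 0.1 and 1 CPM, 78.9% of the 1830 genes between 1 and 10 CPM and 98.7% of the 2478 genes above 100 CPM. Genes with both marks were most frequent in the middle, at 15.1% between 0.1 and 1 CPM and 15.4% between 1 and 10 CPM, against 1.29% above 100 CPM. H3K27me3, with or without H3K4me3, was found at 15.6% of genes without a count, 25.5% of genes with up to 0.1 CPM and 1.41% of genes above 100 CPM. Most genes without a count, 82.0%, had neither mark.

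The strength and breadth of H3K4me3 differed with the state. At starts with H3K4me3 only the median fold over input was 7.77, and at starts with both marks it was 3.90. H3K27me3 had a median fold of 1.62 at starts with both marks and of 1.47 at starts with H3K27me3 only. These fold medians take only starts with an island of the mark in all 4 libraries. For H3K4me3 these were 10867 of 11093 starts with H3K4me3 only and 1166 of 1316 with both marks. For H3K27me3 they were 917 of 1316 starts with both marks and 685 of 1216 with H3K27me3 only. Among genes with H3K4me3 only, those whose island at the start was under 2 kb wide had a median of 5.46 CPM (553 genes), those with 2 to 4 kb 36.9 CPM (3935 genes), those with 6 to 10 kb 82.6 CPM (1584 genes) and those with 10 kb or more 104 CPM (463 genes). Widths of H3K27me3 islands at the start showed no such order among genes with both marks, whose medians were 0.926 CPM for 6 to 10 kb and 0.289 CPM for 10 kb or more.

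The widest H3K4me3 regions included stretches over Hoxc genes and over genes that drew many reads. Regions were taken as stretches under an island in at least 3 of the 4 libraries, and the ones named here were chosen after their values were seen. Of 16350 H3K4me3 regions, with a median width of 2.80 kb, 35 spanned 20 kb or more. The second widest, chr15:102958801-103020000 (61.2 kb, build GRCm38), overlapped Hoxc10, Hoxc9, Hoxc8, Hoxc6, Hoxc5 and Hoxc4, at a fold of 5.30 to 8.74 in single libraries. Others overlapped the nuclear RNAs Malat1 and Neat1 (60.2 kb), Nfix (46.2 kb), Midn and Cirbp (41.2 kb) and Lrp1 (28.4 kb). The widest of all, 97.2 kb around Phf10 on chromosome 17, had a fold of only 1.78 to 2.47. H3K27me3 formed 12555 regions, of which 485 spanned 20 kb or more. The 10 widest had folds of at most 1.44. A region of 84.8 kb over the eye development gene Vax2 and the neighbouring Clec4f and Cd207 had a fold of 1.41 to 1.88. Vax2 averaged 0.216 CPM there, and Clec4f and Cd207 had 0 counts.

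Hox genes, the homeobox factors that record where along the body axis a cell arose, differed between clusters in RNA and in both marks. Mammals carry 4 clusters of them. In the Hoxc cluster all 9 genes were at 1 CPM or more, in Hoxb 8 of 10 and in Hoxa 9 of 11, but in Hoxd none of 9. Over the 4 clusters this was 26 of 39 genes (66.7%), beside 51.3% of genes with a start. Summed over a cluster, RNA was 608 to 664 CPM for Hoxc in the 6 libraries, 436 to 468 CPM for Hoxb, 260 to 281 CPM for Hoxa and 0 to 0.891 CPM for Hoxd. H3K27me3 regions covered 86.8% of the Hoxd cluster (chr2:74668225-74765142), against 12.8% of Hoxa, 12.0% of Hoxb and 17.3% of Hoxc. H3K4me3 regions covered 11.8% of Hoxd, against 48.8% of Hoxa, 35.8% of Hoxb and 74.4% of Hoxc.

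Within the clusters in use, the members with most reads were Hoxb9 (204, 207 and 216 CPM in the lowest, median and highest library), Hoxc10 (191, 198 and 209 CPM), Hoxc6 (118, 129 and 138 CPM), Hoxc9 (105, 109 and 119 CPM) and Hoxa10 (100, 104 and 109 CPM). The ends of these clusters differed from their middles. Hoxa11 had 2 counts in all and H3K27me3 only at its start, and Hoxa13 had 0 counts and both marks. The Hoxa11 start also had an H3K4me3 island in 2 libraries, fewer than the 3 asked for. Hoxb1 (5 counts) and Hoxb13 (0 counts) held H3K27me3 islands in at least 3 libraries and no H3K4me3 island. Hoxc12 and Hoxc13 departed from this, since both were read in every library, at 12.3 ± 2.19 and 35.2 ± 2.81 CPM. H3K27me3 covered 100% and 94.1% of these genes on average, and H3K4me3 covered 97.1% and 31.5% of them. In the Hoxd cluster 8 genes had 0 counts, and Hoxd8 had 6 counts in 2 libraries. Hoxd3, Hoxd8, Hoxd9 and Hoxd11 had both marks at the start, and Hoxd1, Hoxd4, Hoxd10, Hoxd12 and Hoxd13 had H3K27me3 only. Of the latter, Hoxd10 and Hoxd13 also had an H3K4me3 island at the start in 2 libraries.

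**Figure D4:**
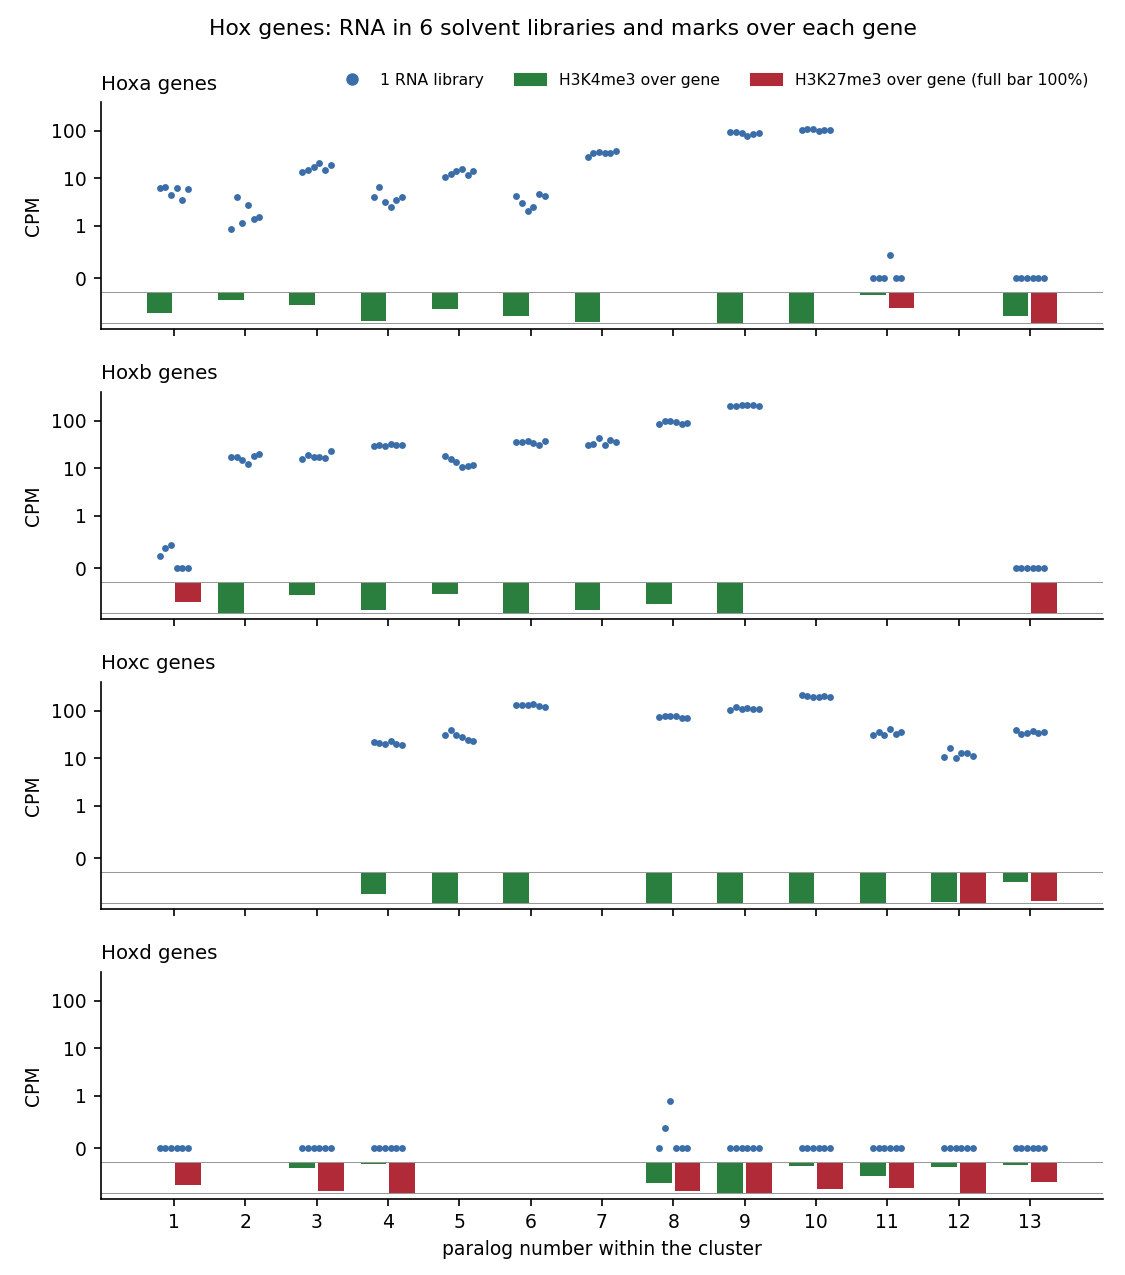
CPM of the 39 Hox genes in the 6 solvent RNA libraries (points; linear axis below 1, logarithmic above) by paralog number in each cluster. The bars hanging between the grey lines give the mean share of the gene under H3K4me3 (green) and H3K27me3 (red) islands in 4 libraries each, with 100% at the lower line; Hoxd genes all have red bars, and only Hoxd8 has any count.

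The promoters of a Hox pair are printed for 2 states. They are the 300 bases around the annotated start (250 before it and 50 after it, RefSeq, GRCm38.p6), written 5′ to 3′ in the direction of the gene with CpG dinucleotides in capitals, and were chosen after the values were seen, as was that of the silent bone gene Ibsp. Hoxa9 (chr6:52227321-52227620, minus strand) had 87.8 ± 6.09 CPM and H3K4me3 only. Its paralog Hoxd9 (chr2:74697513-74697812, plus strand) had 0 counts and both marks. Ibsp (chr5:104299037-104299336, plus strand), with neither mark and 0 counts, has 5 CpG and a TATAAA match.
Hoxa9: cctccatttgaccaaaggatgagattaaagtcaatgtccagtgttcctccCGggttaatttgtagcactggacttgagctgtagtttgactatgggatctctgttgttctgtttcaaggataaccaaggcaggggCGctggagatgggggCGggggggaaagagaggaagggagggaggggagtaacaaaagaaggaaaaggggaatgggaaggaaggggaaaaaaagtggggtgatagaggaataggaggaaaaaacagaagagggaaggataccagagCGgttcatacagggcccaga
Hoxd9: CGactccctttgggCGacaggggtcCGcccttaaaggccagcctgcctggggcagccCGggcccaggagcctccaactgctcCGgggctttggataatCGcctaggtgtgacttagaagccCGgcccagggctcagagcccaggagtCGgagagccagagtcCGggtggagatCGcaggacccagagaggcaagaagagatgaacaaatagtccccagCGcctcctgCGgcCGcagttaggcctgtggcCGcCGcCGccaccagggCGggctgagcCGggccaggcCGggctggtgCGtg
Ibsp: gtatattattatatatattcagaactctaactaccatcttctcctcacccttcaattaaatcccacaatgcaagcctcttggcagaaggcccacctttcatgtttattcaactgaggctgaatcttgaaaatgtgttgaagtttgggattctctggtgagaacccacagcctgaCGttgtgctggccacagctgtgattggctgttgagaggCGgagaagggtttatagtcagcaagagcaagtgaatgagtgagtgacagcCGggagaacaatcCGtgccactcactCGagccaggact
The Hoxa9 window holds 4 CpG and the Hoxd9 window 20, so in this pair the silent gene has the CpG-rich promoter.

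Among the list members, the promoters with the highest H3K4me3 fold were those of Kdm5b, Rnf2 and Cd200. Kdm5b (chr1:134559928-134560227, plus strand), itself a demethylase of H3K4me3, had a mean fold of 28.9 over the 4 libraries (22.5 to 38.4) and 46.8 ± 4.24 CPM. Rnf2 (chr1:151500942-151501241, minus strand), a Polycomb ubiquitin ligase, had 21.8 (14.3 to 28.2) and 63.1 ± 3.80 CPM. Cd200 (chr16:45409004-45409303, minus strand), a surface glycoprotein, had 20.6 (16.3 to 25.2) but 0.633 ± 0.465 CPM, so the third highest fold sat on a gene that was barely read.
Kdm5b: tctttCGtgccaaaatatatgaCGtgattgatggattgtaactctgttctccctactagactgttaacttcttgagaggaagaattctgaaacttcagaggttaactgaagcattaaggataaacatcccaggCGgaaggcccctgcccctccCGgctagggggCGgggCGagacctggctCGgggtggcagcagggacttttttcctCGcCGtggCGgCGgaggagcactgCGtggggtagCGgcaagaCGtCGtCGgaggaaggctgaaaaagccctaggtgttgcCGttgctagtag
Rnf2: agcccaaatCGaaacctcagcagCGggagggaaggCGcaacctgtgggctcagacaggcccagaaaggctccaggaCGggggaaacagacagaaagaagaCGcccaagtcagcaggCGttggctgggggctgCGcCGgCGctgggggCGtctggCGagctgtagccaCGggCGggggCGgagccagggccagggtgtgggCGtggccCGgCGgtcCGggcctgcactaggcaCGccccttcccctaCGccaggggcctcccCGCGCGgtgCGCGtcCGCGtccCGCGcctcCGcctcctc
Cd200: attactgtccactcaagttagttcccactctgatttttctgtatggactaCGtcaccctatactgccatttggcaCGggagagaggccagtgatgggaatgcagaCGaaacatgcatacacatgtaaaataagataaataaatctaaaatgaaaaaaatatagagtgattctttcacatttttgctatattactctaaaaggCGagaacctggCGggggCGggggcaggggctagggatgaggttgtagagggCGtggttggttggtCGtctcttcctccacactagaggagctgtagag
The 3 windows hold 17, 30 and 8 CpG and each has a GGGCGG match on one of the strands.

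Among the list members, the promoters with the highest H3K27me3 fold were those of Olig2, Igfbp2 and Lin28a, all without a count in any of the 6 libraries. Olig2 (chr16:91225300-91225599, plus strand), a factor of oligodendrocytes and motor neurons, had a mean fold of 2.37 (1.97 to 2.78) and H3K27me3 only. Igfbp2 (chr1:72824230-72824529, plus strand), a binding protein of insulin-like growth factors, had 2.32 (1.88 to 2.67) and both marks. Lin28a (chr4:134018767-134019066, minus strand), an RNA-binding protein of stem cells, had 2.29 (1.80 to 3.01) and H3K27me3 only.
Olig2: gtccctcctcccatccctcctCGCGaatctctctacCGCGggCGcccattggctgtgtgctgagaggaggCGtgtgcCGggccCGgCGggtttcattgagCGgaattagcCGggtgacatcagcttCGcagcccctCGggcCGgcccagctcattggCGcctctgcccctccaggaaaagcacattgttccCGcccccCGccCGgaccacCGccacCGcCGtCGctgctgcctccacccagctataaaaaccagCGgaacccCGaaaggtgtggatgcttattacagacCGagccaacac
Igfbp2: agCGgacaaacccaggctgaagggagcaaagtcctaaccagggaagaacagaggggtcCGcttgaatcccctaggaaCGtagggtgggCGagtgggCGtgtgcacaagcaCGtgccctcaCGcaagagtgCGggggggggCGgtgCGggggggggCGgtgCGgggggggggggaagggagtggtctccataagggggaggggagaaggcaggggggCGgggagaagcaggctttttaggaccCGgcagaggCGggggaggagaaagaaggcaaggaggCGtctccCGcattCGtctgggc
Lin28a: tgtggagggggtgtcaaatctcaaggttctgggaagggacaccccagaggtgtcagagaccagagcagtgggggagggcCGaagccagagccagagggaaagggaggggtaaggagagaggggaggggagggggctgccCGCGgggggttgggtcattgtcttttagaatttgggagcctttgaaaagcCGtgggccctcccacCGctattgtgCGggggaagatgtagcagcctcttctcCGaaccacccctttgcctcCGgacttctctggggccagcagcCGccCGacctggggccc
These windows hold 25, 18 and 10 CpG.

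Over all 22390 starts, promoter sequence was alike at starts with H3K4me3 only and with both marks, and differed from these at starts with H3K27me3 only or neither mark. The median number of CpG in the window was 22 at starts with H3K4me3 only, 22 at starts with both marks, 7 at starts with H3K27me3 only and 3 at starts with neither mark, against 12 over all starts. 10 or more CpG were found at 86.6%, 85.6%, 37.3% and 12.1% of these starts in the same order. Within the starts with both marks, those of genes at 1 CPM or more had a median of 23 CpG and those of genes below it 21. The GC-box core GGGCGG, searched on both strands, was found at 67.5% of starts with H3K4me3 only, 69.1% of those with both marks, 32.2% of those with H3K27me3 only and 13.7% of those with neither, against 44.7% of all starts. TATAAA ran the other way, at 5.74%, 7.22%, 14.1% and 20.7%, against 12.2% of all starts. CCAAT differed less (38.0%, 31.7%, 33.1% and 38.3%, against 37.5%), and the E-box CACGTG was found at 10.3%, 8.13%, 6.50% and 4.56%, against 7.74%. A match is a description of the letters and not a bound site.

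**Figure D5:**
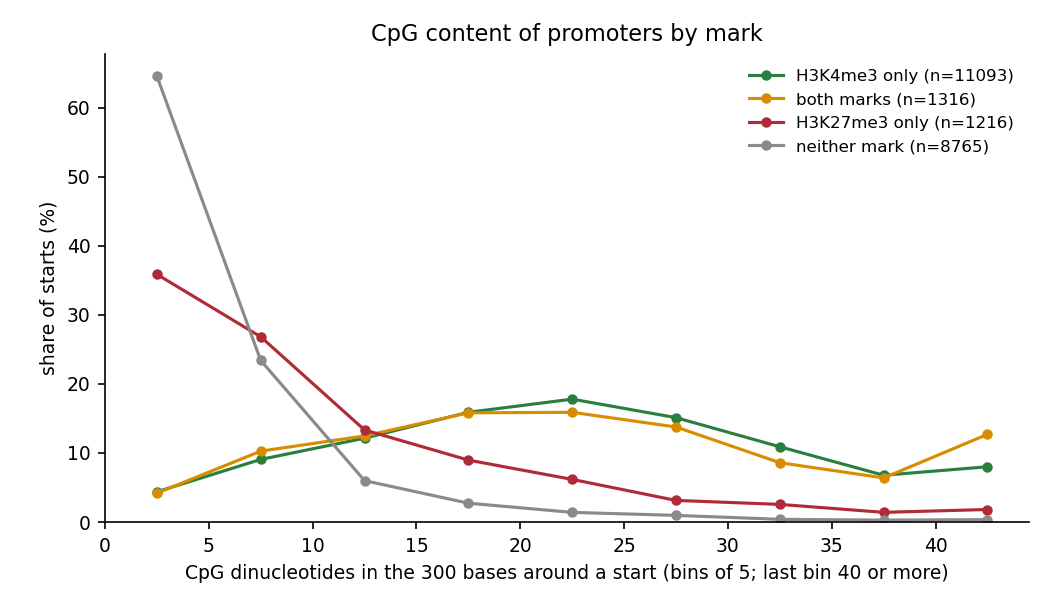
Share of annotated starts (%) by the number of CpG dinucleotides in the 300-base promoter window, for the 4 mark states. The curves of H3K4me3 only and both marks run together with a median of 22, and the curve of neither mark has its peak at 0 to 4 CpG.

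The 10 genes with both marks that had most reads were Specc1 (396 ± 17.1 CPM), Frmd4a (337 ± 17.3 CPM), Ddx39b (228 ± 6.83 CPM), Iqsec1, Sympk, Yy1 (192 ± 6.51 CPM), Wiz, Kdelr1, Grb10 (174 ± 4.09 CPM) and Lap3. Grb10 is an imprinted gene whose parental alleles are known to be marked differently. It had H3K4me3 at a fold of 10.7 and H3K27me3 at 2.29, each the highest over the starts used. At Ddx39b, an RNA helicase gene, the wide H3K4me3 region and the wide H3K27me3 region began at the same position, chr17:35239601, with folds of at most 1.98 and 1.26. Yy1, which encodes a zinc finger factor that binds many active promoters, had an H3K27me3 island at its start in 3 of 4 libraries.

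Of the 30 genes at 1 CPM or more with H3K27me3 only, 16 had an H3K4me3 island elsewhere over the gene. The same share over all genes is not given here, and gene length was not adjusted for. Macf1, a large cytoskeletal linker gene of 338170 bp, led with 485, 553 and 600 CPM in the lowest, median and highest library. H3K27me3 covered 0.725% of it, and H3K4me3 islands lay within it in all 4 libraries. Fam149a (125 ± 5.20 CPM), Rnf220 (107 ± 5.71 CPM) and Kank1 (69.3 ± 6.57 CPM) also had H3K4me3 islands over the gene in 4 of 4 libraries. The next were Spn (10.2 ± 0.890 CPM), Tmem181a, Pax5 (7.21 ± 2.27 CPM), Chrnb2, Dynlt1f and Ryr1 (5.41 ± 1.41 CPM). Spn and Chrnb2 had no H3K4me3 island over the gene in any library. Tmem181a and Dynlt1f have close copies next to them, so their counts and islands are uncertain.

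Genes with neither mark at the start but 10 CPM or more numbered 126, and 96 of them (76.2%) had an H3K4me3 island elsewhere over the gene. This share has no background here either, and gene length was not adjusted for. Fat1 (936 ± 71.2 CPM), Tcf20 (493 ± 26.9 CPM), Myo18a (435 ± 11.4 CPM), Tnk2 (388 ± 11.4 CPM) and Ddr2 (378 ± 12.7 CPM) led, each with H3K4me3 islands over the gene in all 4 libraries. Runx2 was of this kind too, and its gene held islands of both marks in all 4 libraries of each, which covered 8.15% (H3K4me3) and 4.28% (H3K27me3) of it on average. Conversely, of 197 list genes with H3K4me3 only, 8 were below 1 CPM, namely Map2, Cd200, Ifitm5, Matn3, Esr2, Epcam, Retn and Vav1. Over all genes with H3K4me3 only, 92.0% reached 1 CPM.

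Across the lists, 74 of 359 genes with a start had H3K27me3 there. Of the 40 with both marks, 19 were at 1 CPM or more, and of the 34 with H3K27me3 only, 1. Over all genes in these 2 states, 40.0% and 3.12% reached 1 CPM. The remaining list genes with both marks that reached 1 CPM included Itga11, a collagen-binding integrin of fibroblasts, at 22.8 ± 4.27 CPM. H3K27me3 was found at 7 of 12 starts of the neural list, 4 of 7 of the endoderm list and 12 of 22 of the Hox list, the 3 highest shares. Over all genes with a start, 6.22% had both marks and 5.25% H3K27me3 only. H3K27me3 was found at none of the starts of the matrix (26), cell cycle (13), smooth muscle (11), cell cycle inhibitor (10), housekeeping (10) and X and Y chromosome (5) lists. At these background shares only a few would be counted in the matrix list, and few or none in each shorter list. Whether these lists together lie below the background was not tested.

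The 6 solvent libraries were close replicates. The common biological coefficient of variation, the spread beyond counting error in edgeR's fit of 11434 genes, was 4.29%. Among the 9979 genes at 10 CPM or more the median coefficient of variation was 6.91%. The median expected from counting alone was 5.91%, and the median spread beyond counting was 3.49%. For 1234 of them, or 12.4%, the estimated spread beyond counting was 10% or more. This count also holds error of the estimate, and how many genes would reach 10% from counting error alone was not tested. Only genes at 10 CPM or more were ranked by excess spread. The first 8 lay near that limit, namely Fancc, Grin2d, Trpv4, Fan1, Zfp944, Mr1, Uba7 and Ccdc173. The spread expected from counting alone was larger there, at 12.7% to 14.7%. The excess is estimated from 6 libraries, so the ranks also hold error of the estimate. Fancc, a DNA repair gene, had 6.80, 9.44 and 16.8 CPM in the lowest, median and highest library, an excess of 31.9%. Trpv4, which has both marks, had 6.46, 14.96 and 18.1 CPM and an excess of 30.4%. For comparison, the range across all 6 libraries was 460 to 487 CPM for Prrx1, 135 to 152 CPM for Twist1 and 42.3 to 47.4 CPM for Pparg.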

How the data were processed

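RNA-seq and ChIP-seq of solvent-treated marrow stromal cells were used. The authors deposited raw read counts per gene for 24 RNA libraries, and 18 count columns of treated cells were not used. The submitters' processing notes name STAR, SAMtools, SICER, DESeq2 and DiffBind, with builds GRCm38 and mm10 and no versions. Neither the counting program nor its strand setting is named there. The ChIP files that the authors deposited, 1 per library, list islands with ChIP and input read counts, a p-value and FDR, and the fold ratio of ChIP over input. Per the file names in the deposited lists, islands were called per library at an FDR of 0.001, a window of 200 bp and a gap of 600 bp. Within each file the fold was the ratio of reads divided by 1 constant, and 0.25 input reads stood in for islands with none.

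Counts were scaled with edgeR 4.0.16 (TMM) in R 4.3.3. Log2 CPM used a prior count of 2. Reads given to no gene and spike-ins were left out of library sizes, and 4 entries whose symbols had turned into repeated dates were left out of gene counts. Each RNA library held 4269329 to 5087215 gene counts, and a limit for 0 counts uses 3 counts, covering counting error only. Starts came from RefSeq promoters (GRCm38.p6), which matched 18359 genes by symbol and 22390 starts. Genes without a listed start, among them 146 list genes, have no mark state, and their marks are given over the gene span with 1 kb on each side. An island was counted at a start when it overlapped the window by at least 1 bp. The spread estimate was tested on simulated counts of 45317 genes, where 188 of 200 genes given extra spread ranked among the first 200. That extra spread was larger than the excess of any gene named above for it, so recovery of smaller spreads was not tested.

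No contrast exists within 1 group, so no test between groups was run and no p-value is given. Dixon's outlier limit was applied to single libraries. The gene lists and members were chosen with earlier results of these data known. Named genes are the 3 list members with most reads, list members at 1 CPM or more with H3K27me3 at the start, the 15 genes with most reads, the first 10 with both marks, 10 with H3K27me3 only and 5 with neither, and the 8 with most excess spread. Others were named after their values were seen. Alternatives covered the scaling, thresholds, windows and left-out libraries. A few list genes are counted in their lists but not reported here by name.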

Additional observations from a re-analysis of the deposited data

Results flagged for a closer look

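In 185 groups of values checked, 11 held a library whose gap to the nearest other took up more of the group's range than Dixon's 95% limit allows. Chance flags about 1 in 20 groups, and the number is near that share. Solvent RNA library 3 stood apart for Cd14, at 49.9 CPM against 42.8 to 44.6 CPM in the others, for Itga2b (10.3 against 5.87 to 7.47 CPM), for Twist1 (152 against 135 to 141 CPM) and, on the low side, for Myo18a (412 against 436 to 445 CPM). Library 2 was lowest for Igfbp7 (214 against 232 to 239 CPM) and Serpinh1 (497 against 536 to 557 CPM) and highest for Nr2f2 (345 against 326 to 331 CPM). Library 1 was lowest for Flt1 (5.15 against 7.22 to 7.67 CPM) and highest for Trp63 (3.51 against 0.706 to 1.27 CPM). Library 6 was highest for Foxf2 (18.1 against 9.82 to 12.5 CPM). Among the ChIP libraries, H3K4me3 library 3 had a median island width of 2800 bp, against 3400 bp in the other 3.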

How the results depend on the processing

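Under each setting printed here, the share of genes at 1 CPM or more was highest with H3K4me3 only and lower with both marks, H3K27me3 only or neither, except that a fold of 3 left too few genes with H3K27me3 to compare. The number of genes at 1 CPM or more stayed within 1.5 times under the other scalings and left-out libraries, and the levels of 166 named genes stayed within 1 SD under DESeq2, total and spike-in scaling. As main values the median log2 CPM was 5.59 (H3K4me3 only), -0.38 (both marks), -1.18 (H3K27me3 only) and -1.18 (neither). H3K27me3 calls depended most on the setting. Protein-coding genes, gene spans and the 1.5-fold limit were chosen after seeing the data.

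With an island in all 4 libraries there were 714 genes with both marks and 615 with H3K27me3 only; the medians were 5.56 for H3K4me3 only and -0.48 for both marks, and the shares at 1 CPM or more were 91.7%, 36.8%, 3.41% and 7.55% for H3K4me3 only, both marks, H3K27me3 only and neither. With an island in at least 1 library there were 3037 and 1953 genes, the medians were 5.61 and 1.01, and the shares 90.5%, 54.5%, 4.76% and 5.48%. With 2.5 kb on each side the medians were 5.55 and -0.18 and the shares 91.1% (H3K4me3 only), 43.1% (both) and 6.49% (neither). With the start base only they were 5.61 and -0.26, and the shares 92.5%, 41.0%, 3.48% and 7.31%. A fold of at least 3 left 1 gene with both marks and 0 with H3K27me3 only, and shares of 91.6% (H3K4me3 only) and 12.1% (neither). A fold of at least 1.5 left 445 and 233 genes, medians of 5.46 and -0.84, and shares of 89.6%, 26.1% and 4.29%. With an overlap of 500 bp the H3K4me3-only share was 92.2%.

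With at least 10 counts the medians were 5.70, 1.85, 0.42 and 0.53, and with a prior count of 0.5 they were -1.42, -3.18 and -3.18 for both marks, H3K27me3 only and neither. For protein-coding genes the medians were 5.75 and -0.13 and the shares 95.4%, 42.7%, 3.44% and 7.60%. In genes of middle span the H3K4me3-only median was 5.53 and the shares 93.0%, 41.3%, 3.57% and 8.71%. Median CpG with an island in all 4 libraries was 23 (both marks) and 9 (H3K27me3 only). List genes with H3K27me3 at the start numbered 139 with an island in at least 1 library, 0 at a fold of 3 and 35 at a fold of 1.5.

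Leaving out each library in turn gave 748 to 965 genes with both marks and 628 to 852 with H3K27me3 only (748 and 628 without ChIP library 4, 760 and 638 without ChIP library 3), medians of 5.55 to 5.59 and -0.54 to -0.33 for H3K4me3 only and both marks, and shares of 91.5% to 92.2%, 36.3% to 40.2%, 3.01% to 3.80% and 6.92% to 7.51%. The common coefficient of variation was 3.56% to 4.61%. With a ChIP library left out, all 3 remaining libraries had to hold an island, so a gene could lose a mark but not gain one. Why the calls moved more without some libraries than others was not tested. No paired analysis was possible because the result comes from no test within 1 group. A gene with 0 counts may still have had up to 0.110 CPM.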

Other observations

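Y chromosome islands were few, with 3 to 12 per H3K4me3 library and 4 to 10 per H3K27me3 library, beside 543 to 759 and 263 to 385 on the X chromosome. The widest H3K4me3 region on Y, chrY:90736801-90797000, spanned 60.2 kb at a fold of 1.19 to 1.58 and overlapped no gene with a RefSeq span here. On X, a region of 39.4 kb over Erdr1 and Mid1 had a fold of 1.28 to 1.58. Whether the reads of the Y region come from Y was not tested. H3K4me3 also formed a 25.2 kb region over Pmepa1 (189 CPM), a TGF-beta pathway gene, and a 23.2 kb region over Antxr1 (480 CPM), an anthrax toxin receptor that binds collagen. Esr1, the estrogen receptor gene, averaged 65.1 CPM, with H3K4me3 only at its start and H3K27me3 islands over the gene in all 4 libraries.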
